A study of Mus musculus with 16 samples.

Results

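The genes of oxidative phosphorylation were followed in the pituitary of 16 female mice. Members were chosen by name alone: protein-coding genes whose symbol begins with Ndufa, Ndufb, Ndufc, Ndufs, Ndufv, Uqcr, Cox4 to Cox8 or Atp5, that is Sdha, Sdhb, Sdhc or Sdhd, or that is one of the mt-Nd, mt-Co, mt-Cyt or mt-Atp genes. Of the 17362 genes listed, 103 symbols fitted these names and 102 of them were protein coding, 89 encoded in the nucleus and 13 in mitochondrial DNA (mtDNA). All 102 passed the filter on low values, so they stood among the 14345 genes tested.

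Controls (genotype Ctrl) carried the floxed allele of Esr1, the gene for oestrogen receptor alpha, and mutants (Esr1Nkx2-1Cre) carried it together with an Nkx2-1 Cre driver, so that any cell whose lineage had used Nkx2-1 could lose the receptor. All mice were of a CD-1;129P2 mixed background. Each genotype was fed a standard diet (SD, called chow in the labels) or a high-fat diet (HFD) for 17 weeks, which gave 4 groups of 4 mice, all 27 weeks old, with 1 library per mouse. The p-values therefore measure the spread between these mice. Nkx2-1 is known from the hypothalamus and the posterior lobe rather than from the hormone cells of the anterior lobe, so the whole gland holds many cells that the deletion would not reach. In whole-gland RNA, fewer cells of a type and less RNA per cell cannot be told apart.

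Oxidative phosphorylation passes electrons from NADH and succinate to oxygen through complexes I to IV of the inner mitochondrial membrane and uses the resulting proton gradient to make ATP in complex V. Complex II is encoded wholly in the nucleus, whereas complexes I, III, IV and V combine nuclear subunits with a few subunits that are transcribed and translated inside the mitochondrion. The mitochondrial genes are copied from both strands of a small circular genome as long precursors that are cut into single RNAs, so their levels are usually high and tend to move together. The 2 sets are therefore described separately.

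Some mitochondrial genes cannot be measured alone in these data, because near-identical copies on chromosome 1 are listed as genes of their own. The end of each of 3 mitochondrial genes is printed with the end of its copy (GENCODE M21, GRCm38, 5′ to 3′) to show how little tells them apart. Capitals mark the bases of the mitochondrial gene that the annotated copy does not reach.
mt-Co2 (chrM:7013-7696, plus strand, positions 585 to 684 of the gene): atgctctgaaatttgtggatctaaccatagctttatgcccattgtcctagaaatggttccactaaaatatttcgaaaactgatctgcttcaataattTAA
Gm28661 (chr1:24614885-24615565, minus strand): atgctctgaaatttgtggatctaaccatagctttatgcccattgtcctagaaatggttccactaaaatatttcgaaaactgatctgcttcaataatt
mt-Co3 (chrM:8607-9390, plus strand, positions 687 to 784): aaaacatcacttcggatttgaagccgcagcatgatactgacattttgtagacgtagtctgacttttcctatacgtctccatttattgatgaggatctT
Gm28437 (chr1:24613189-24613971, minus strand): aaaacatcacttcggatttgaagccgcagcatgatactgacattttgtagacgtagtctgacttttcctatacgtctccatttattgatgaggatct
mt-Nd3 (chrM:9459-9806, plus strand, positions 249 to 348): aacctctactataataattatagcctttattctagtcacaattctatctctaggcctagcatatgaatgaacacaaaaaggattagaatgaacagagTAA
Gm28438 (chr1:24612775-24613119, minus strand): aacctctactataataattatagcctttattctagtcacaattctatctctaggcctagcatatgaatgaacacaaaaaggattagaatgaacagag
Over its whole annotated length of 681 bases Gm28661 was identical to mt-Co2, and Gm28437 was identical to mt-Co3 over 783 bases. Gm10925 was identical to mt-Atp6 over 678 bases, and Gm28438 differed from mt-Nd3 at 1 of 345 bases (T3C, counted from the start of mt-Nd3). Gm29216 matched the end of mt-Co1 at 486 of 492 bases. A read from these stretches can be given to either gene.

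The promoters of the nuclear genes were searched for letters bound by factors known to act on respiratory genes. RefSeq promoter windows (GRCm38.p6, 250 bases before to 50 bases after a start) were matched by symbol for 72 of the 89 nuclear members. The letters GCGCATGCG, known from nuclear respiratory factor 1 (NRF1), stood on either strand in 10 of these 72 genes, 13.9%, against 1.95% of the 27025 genes with a window. The letters CCGGAAG, bound by ETS family proteins such as GABPA, stood in 18 of 72, 25%, against 9.93% of all, and AAGATGGCG, a YY1 site, in 8 of 72, 11.1%, against 1.64%. The letters TCAAGGTCA, known from oestrogen-related receptors, stood in 2 of 72, 2.78%, against 0.466%, and CCAAT in 32 of 72, 44.4%, against 41.1%. The NRF1 letters can overlap their own reverse complement, and such overlaps were counted once per gene. A match is a description of these windows, not evidence of binding in the pituitary.

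The windows of 4 members held both the NRF1 and the ETS letters, and all 4 are printed, with those letters in capitals.
Atp5k (chr5:108434350-108434649, minus strand): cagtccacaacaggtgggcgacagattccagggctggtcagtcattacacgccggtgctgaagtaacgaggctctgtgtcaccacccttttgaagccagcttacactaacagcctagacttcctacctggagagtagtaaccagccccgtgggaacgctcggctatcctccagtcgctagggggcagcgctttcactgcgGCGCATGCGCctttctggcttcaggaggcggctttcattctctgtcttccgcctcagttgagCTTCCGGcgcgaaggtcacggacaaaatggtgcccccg
Atp5l (chr9:44920693-44920992, minus strand): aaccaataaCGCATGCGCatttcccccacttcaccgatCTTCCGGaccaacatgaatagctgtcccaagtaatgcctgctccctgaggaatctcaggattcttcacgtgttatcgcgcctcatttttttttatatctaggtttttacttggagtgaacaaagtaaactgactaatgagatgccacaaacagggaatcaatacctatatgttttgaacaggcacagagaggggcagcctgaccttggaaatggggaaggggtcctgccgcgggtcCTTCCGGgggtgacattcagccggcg
Cox6a1 (chr5:115348909-115349208, minus strand): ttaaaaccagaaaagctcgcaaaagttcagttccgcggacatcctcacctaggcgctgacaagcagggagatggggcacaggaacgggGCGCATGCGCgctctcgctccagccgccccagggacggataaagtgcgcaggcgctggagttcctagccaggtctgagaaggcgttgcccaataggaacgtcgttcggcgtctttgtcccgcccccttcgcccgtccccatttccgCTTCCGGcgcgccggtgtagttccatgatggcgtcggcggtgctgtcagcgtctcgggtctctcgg
Uqcr11 (chr10:80406772-80407071, minus strand): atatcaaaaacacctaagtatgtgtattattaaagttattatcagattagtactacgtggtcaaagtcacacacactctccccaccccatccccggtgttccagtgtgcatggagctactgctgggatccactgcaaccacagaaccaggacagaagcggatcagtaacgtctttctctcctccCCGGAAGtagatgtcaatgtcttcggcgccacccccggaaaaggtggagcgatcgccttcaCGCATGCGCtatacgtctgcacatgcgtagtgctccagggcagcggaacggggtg
Atp5k and Atp5l encode the e and g subunits of the membrane part of ATP synthase, Cox6a1 the widely used form of a cytochrome c oxidase subunit, and Uqcr11 a small subunit of complex III.

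Values are the authors' normalised expression, in arbitrary units. Their sums over all genes ranged from 908897 to 1335780 per library, near a transcripts-per-million scale, and levels were read on that footing as values per transcript length; the read depth is unknown. Mouse P357 (mutant, SD) stood apart before any comparison, with the largest sum and with a median log2 value over tested genes of 3.66 against 3.74 to 3.85 in the other 15 mice. Most results of the members that rest on it are given with and without it. Prl alone made up 28.8% to 40.6% of each library, and its share did not set P357 apart (37.2%). Esr1 read 40.5, 46.6, 39.4 and 29 in control SD mice (P356, P358, P359 and P383), 10, 22.2, 20.5 and 21.8 in mutant SD mice (P357, P381, P382 and P384), 23.6, 43.4, 42.7 and 39.6 in control HFD mice (P385, P390, P391 and P392) and 33.4, 27.9, 33 and 21.5 in mutant HFD mice (P339, P341, P387 and P388). It fell in mutants on SD (log2 fold change -1.09, SE 0.25, adjusted p = 0.0409) and was not called on HFD (-0.34, SE 0.25, adjusted p = 0.696), where mutant and control values overlapped. P357 had the lowest Esr1 value, and no fit of Esr1 without P357 is given here. The other SD mutants (20.5 to 22.2) also lay below every SD control.

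A sum of markers of melanotrophs, the hormone cells of the intermediate lobe, also set 2 mice apart. The summed level of 7 melanotroph markers (Pomc among them) was 1694 in P357 and 3532 in P392 (control, HFD), against 11466 to 42413 in the other 14 mice. None of the 7 was at 0 in all mice. The 5 corticotroph markers, which also hold Pomc and Tbx19, summed to nearly the same values. They came to 1703 in P357, 3511 in P392 and 11329 to 42131 in the other 14 mice. These sums therefore do not tell melanotrophs from corticotrophs. The 7 posterior lobe markers summed to 21.3 in P357 and 23.7 in P392, near the lower end of the 16. The part of the lobes sampled in the values of the members was not tested.

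The 13 mtDNA-encoded genes were among the most abundant transcripts of the gland. Their mean values over the 16 mice ran from 763 for mt-Co2 to 6923 for mt-Atp6, with a median of 3078, against a median of 106 for the nuclear members and 13.5 for all genes tested. As a share of all values, their sum was 4.06, 3.76, 3.74 and 3.54 in control SD mice (P356, P358, P359 and P383), 8.94, 3.82, 3.97 and 3.87 in mutant SD mice (P357, P381, P382 and P384), 4.05, 3.89, 3.93 and 3.82 in control HFD mice (P385, P390, P391 and P392) and 4.59, 3.90, 3.72 and 4.08 in mutant HFD mice (P339, P341, P387 and P388), in percent. The share in P357 was 8.94%, and the other 15 mice lay within the narrow range of 3.54% to 4.59%. The highest of these 15 was P339, a mutant on HFD.

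**Figure D1:**
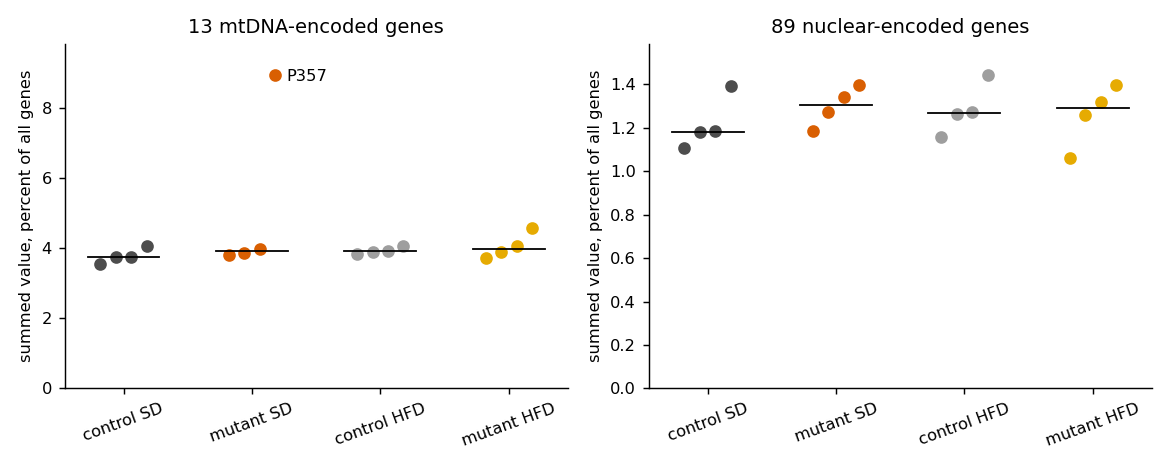
Summed value of the 13 mtDNA-encoded genes (left) and the 89 nuclear-encoded genes (right) as a percent of the sum of all genes, 1 point per mouse with the group median as a line. Chromosome 1 copies of the mtDNA genes are not included. P357 lies at 8.94% on the left, whereas on the right all 16 mice lie between 1.06% and 1.44% and the groups overlap.

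Complex I takes electrons from NADH, and 7 of its core membrane subunits are mitochondrially encoded. The gene mt-Nd1, for the subunit that joins the membrane arm to the quinone site, read 2787, 2459, 2485 and 2296 in control SD mice, 8569, 2545, 2933 and 2554 in mutant SD mice, 2764, 2592, 2342 and 2506 in control HFD mice and 3261, 2600, 2347 and 2412 in mutant HFD mice. The gene mt-Nd5, for the far proton-pumping subunit, read 1129, 1160, 1221 and 1138 in control SD mice, 3905, 1197, 1326 and 1279 in mutant SD mice, 1142, 1253, 1070 and 1354 in control HFD mice and 1862, 1314, 1116 and 1079 in mutant HFD mice. In both, P357 lay far above every other mouse and P339 came next, and the remaining values of the 4 groups overlapped.

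In 3 genes of the complexes further down the chain, mt-Cytb, mt-Co1 and mt-Atp6, P357 and P339 were again the highest mice. The gene mt-Cytb, which encodes cytochrome b of complex III, read 3893, 3612, 3871 and 3440 in control SD mice, 12730, 3936, 4381 and 3918 in mutant SD mice, 3873, 4050, 3730 and 4218 in control HFD mice and 5003, 4129, 3812 and 3947 in mutant HFD mice. The gene mt-Co1, for the catalytic subunit of cytochrome c oxidase, read 5295, 5224, 5467 and 4958 in control SD mice, 17555, 5612, 6156 and 5891 in mutant SD mice, 5211, 5683, 5322 and 5943 in control HFD mice and 7359, 5955, 5440 and 5382 in mutant HFD mice. For ATP synthase, mt-Atp6, the proton channel subunit, read 6157, 4886, 6110 and 5359 in control SD mice, 18986, 5988, 6824 and 6065 in mutant SD mice, 6239, 6341, 5781 and 6402 in control HFD mice and 7855, 6095, 5811 and 5874 in mutant HFD mice. For mt-Cytb and mt-Co1 every SD mutant lay above every SD control, as in 6.09% of all genes tested, by a small margin apart from P357. Once its copy Gm29216 was added to mt-Co1, the control P359 (9990) lay above the mutants P381 (9934) and P384 (9649), so the SD groups overlapped.

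The excess in P357 was shared by all 13 genes. The folds below are of the values as given, and so include the larger sum over all genes in P357. That sum was 1335780, against a mean of 986133 in the other 3 SD mutants. As a share of all values, the mtDNA-encoded sum was 8.94% in P357 against a mean of 3.89%. Against the mean of the other 3 SD mutants, P357 was 3.20-fold higher for mt-Nd1, 3.25-fold for mt-Nd2, 3.75-fold for mt-Nd3, 3.23-fold for mt-Nd4, 3.56-fold for mt-Nd4l, 3.08-fold for mt-Nd5 and 3.12-fold for mt-Nd6. It was 3.12-fold higher for mt-Cytb, 2.98-fold for mt-Co1, 2.55-fold for mt-Co2, 2.52-fold for mt-Co3, 3.02-fold for mt-Atp6 and 2.58-fold for mt-Atp8. The gene mt-Nd6, the only member copied from the opposite strand of mtDNA, thus stood with the rest, although it overlaps mt-Nd5 and the use of strand in counting was not stated. Also mt-Nd4l with mt-Nd4, mt-Atp8 with mt-Atp6, and mt-Atp6 with mt-Co3 overlap at their ends.

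**Figure D2:**
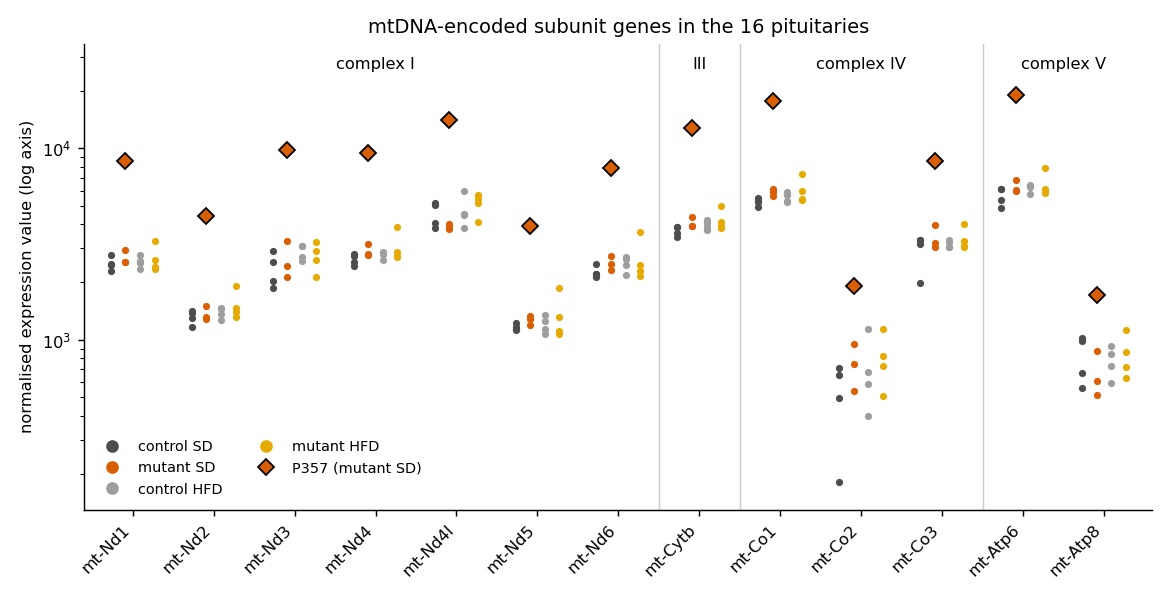
Normalised expression value (log axis) of each mtDNA-encoded gene, 1 point per mouse, coloured by group and ordered by complex. P357, drawn as a diamond, is the highest mouse for all 13 genes, while mt-Co2 and mt-Atp8 are low and widely spread in the other mice.

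The low reading of mt-Co2 came with a high reading of its copy. The gene mt-Co2, for the copper-bearing subunit that receives electrons from cytochrome c, read 713, 181, 498 and 651 in control SD mice, 1909, 749, 543 and 955 in mutant SD mice, 589, 679.6, 402 and 1138 in control HFD mice and 731, 1135, 511 and 819 in mutant HFD mice. Its copy Gm28661 read 7032, 7017, 7651 and 6350 in control SD mice, 24061, 7009, 8389 and 6858 in mutant SD mice, 7377, 7687, 7113 and 6572 in control HFD mice and 8956, 6526, 6895 and 6475 in mutant HFD mice. The mitochondrial gene thus held only 2.51% to 14.8% of the sum of the pair in any mouse.

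The sum of the pair was steadier than mt-Co2 by itself. Among the 15 mice other than P357, the coefficient of variation was 37.7% for mt-Co2 and 8.81% for mt-Co2 plus Gm28661, which ran from 7001 to 9687. For mt-Co3 it was 14.3% alone and 9.19% with Gm28437. In P383, the control SD mouse with the lowest mt-Co3 (1983), Gm28437 read 3969, and in P384, with mt-Co3 at 3981, it read 2599, so the pairs came to 5952 and 6580. The gene mt-Co1 held 53.9% to 62.0% of its pair with Gm29216. Fold changes of mt-Co1, mt-Co2, mt-Co3 and mt-Nd3 alone are uncertain for this reason. The gene mt-Atp6 is less so, as it held 88.0% to 99.98% of its pair with Gm10925. The lowest share was in P358, where mt-Atp6 read 4886 and Gm10925 669. Its SD log2 fold change was 0.56 alone and 0.51 with Gm10925 added.

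**Figure D3:**
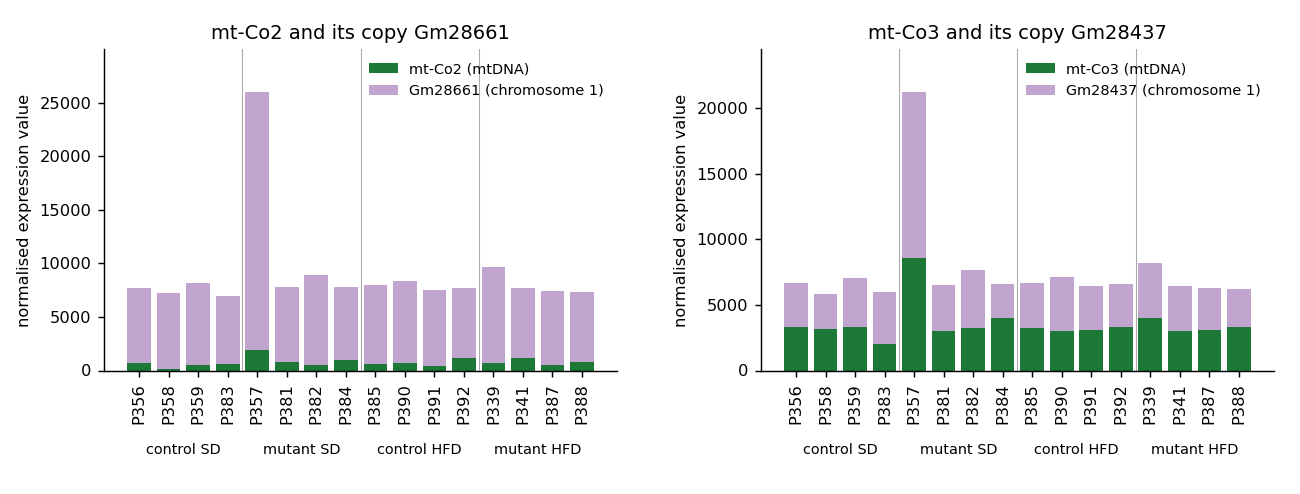
Normalised value of mt-Co2 (left) and mt-Co3 (right) in green with the value of the chromosome 1 copy stacked above in lilac, for each mouse in group order. Outside P357 the total bar height varies little (7001 to 9687 on the left), whereas the green part of mt-Co2 runs from 181 to 1138.

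No mtDNA-encoded gene passed the test in any comparison. For mutants against controls on SD, limma called 0 of 13 at an adjusted p under 0.05, where 1.84% of all genes tested were called; 2 of 13 had an unadjusted p under 0.05, where 19.9% of all genes did. All 13 had a log2 fold change above 0, with a median of 0.56 and a range of 0.08 to 1.04, beside a median of -0.01 over all genes tested. The smallest adjusted p among them was that of mt-Co2, log2 fold change 1.04 (SE 0.44, adjusted p = 0.215), which became 0.54 (SE 0.29, adjusted p = 0.319) once Gm28661 was added to it. Without P357 the median was 0.15 and 11 of 13 were above 0.

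The sums were compared in turn. On SD the mtDNA-encoded share was 5.15% ± 2.53 (SD, n = 4) in mutants and 3.77% ± 0.212 in controls (two-sided exact permutation test, p = 0.229). Without P357 the mutant share was 3.89% ± 0.0779 (n = 3; exact permutation test, p = 0.457). On HFD the shares were 4.07% ± 0.372 in mutants and 3.92% ± 0.0952 in controls (exact permutation test, p = 0.571). With the chromosome 1 copies added, shares on SD were 7.31% ± 3.62 in mutants and 5.39% ± 0.183 in controls (exact permutation test, p = 0.314). On HFD they were 5.62% ± 0.501 and 5.55% ± 0.229 (exact permutation test, p = 0.914). The groups overlapped in each case.

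On HFD, 0 of 13 mtDNA-encoded genes were called, where 0% of all genes tested were, and 0 of 13 had an unadjusted p under 0.05, where 10.2% of all genes did. The median log2 fold change of mutants over controls was 0.09, with 12 of 13 above 0, but 5 of 13 were above 0 without P339. With the number in the sample title (P339 to P359 against P381 to P392) as a covariate, 1 of 13 was above 0. These numbers were read as animal numbers, which the labels do not state. The split was tied to the groups: every HFD control lay in the upper range, and P357 was the only SD mutant in the lower. For HFD against SD in mutants the median was -0.37 with 0 of 13 above 0, and without P357 it was 0.05 with 11 of 13 above 0, so the direction rested on that mouse. For HFD against SD in controls it was 0.08 with 12 of 13 above 0. For the interaction of genotype and diet it was -0.47 with 1 of 13 above 0, and without P357 it was -0.06 with 4 of 13 above 0. With all 16 mice, in none of these was a member called or past an unadjusted p of 0.05.

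Nuclear-encoded members lay within a narrow range. Their summed share was 1.39, 1.11, 1.18 and 1.19 in control SD mice, 1.27, 1.34, 1.40 and 1.18 in mutant SD mice, 1.44, 1.16, 1.27 and 1.26 in control HFD mice and 1.06, 1.26, 1.32 and 1.39 in mutant HFD mice, in percent, from 1.06% (P339) to 1.44% (P385). P357, at 1.27%, lay inside this range. On SD the share was 1.30% ± 0.0918 in mutants and 1.22% ± 0.123 in controls (n = 4 each; exact permutation test, p = 0.314), and on HFD 1.26% ± 0.143 and 1.28% ± 0.118 (p = 0.771, exact). Without the chromosome 1 copies, the mtDNA-encoded sum was 7.02 times the nuclear-encoded sum in P357. This ratio ran from 2.81 to 4.32 among the remaining 15. The median spread within groups was 0.22 on the log2 scale for nuclear members and 0.26 for all genes tested, and 62 of 89 nuclear members were at or under the latter. However, 80 of 89 had a mean above the median mean of all genes tested, and genes of like level were not compared. For mtDNA-encoded members, with P357 included, the median spread was 0.45, and 0 of 13 were at or under 0.26.

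By complex, the nuclear members had median levels of 94.0 for the 36 complex I subunits, 72.7 for the 4 subunits of complex II, 183 for 8 of complex III, 167 for 16 of complex IV and 206 for 17 of complex V. The 8 Ndufaf assembly factors, which help build complex I but do not stay in it, were lower, with a median of 11.3. The most abundant nuclear members were Atp5e (mean 640.4), the epsilon subunit of the ATP synthase stalk, and Atp5b (634), its catalytic beta subunit. In complex IV, Cox6a1 (459.6) and Cox8a (439.6) were highest, and in complex III Uqcrh (380.0), which encodes its hinge protein. In complex I, Ndufv3 (269) and Ndufa1 (260.0) led, and in complex II Sdha (112), the flavoprotein that oxidises succinate, and Sdhc (73.9), a membrane anchor.

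For several subunits alternative isoforms are encoded, and in each pair measured here the widely expressed form was by far the higher. Cox4i1 had a mean of 347 and Cox4i2, the form linked to low oxygen and lung, 4.96. Cox6b1 had a mean of 221 and the testis form Cox6b2 of 6.06. Cox7a2 had a mean of 170.0 and the heart and muscle form Cox7a1 of 7.15, and Cox7a2l, an assembly factor of respiratory supercomplexes, of 143. Ndufa4, now known as a subunit of complex IV, had a mean of 196 and its paralogue Ndufa4l2 of 7.74. Cox6a1, Cox7b (88) and Cox8a were measured, whereas Cox6a2, Cox7b2, Cox8b and Cox8c were not analysed here.

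The 3 genes for the identical c subunit of the ATP synthase ring differed. Atp5g1 had a mean of 353 and Atp5g3 of 206, whereas Atp5g2 had 51.2. Atp5g2 shares 645 identical bases with Gm10175, which read a mean of 262, so the pair came to 313. Likewise Ndufa12 (91.3) shares sequence with Gm15920 (197), Ndufb4 (38.1) with Ndufb4c (179), Ndufs5 (37) with BC002163 (115) and Cox7a2l with Gm6969 (101). Values of these 5 members alone are uncertain, whereas Cox7c (315) shared 315 bases with Gm10012 (2.65) and made up nearly all of that pair.

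Between mutants and controls on SD, 0 of 89 nuclear members were called, where 1.84% of all genes tested were. An unadjusted p under 0.05 was reached by 27 of 89, where 19.9% of all genes reached it, and 78 of 89 had a log2 fold change above 0, with a median of 0.25 against -0.01 over all genes. Without P357 the median was 0.14, again with 78 of 89 above 0. By complex, the median log2 fold change was 0.26 for complex I (36 of 36 above 0), 0.28 for complex III (7 of 8), 0.29 for complex IV (15 of 16) and 0.19 for complex V (15 of 17). It was -0.08 for complex II (1 of 4 above 0) and 0.01 for the assembly factors (4 of 8). Without P357 these medians were 0.13, 0.17, 0.19, 0.13, 0.03 and 0.01 in the same order. The counts above 0 were then 33 of 36, 8 of 8, 14 of 16, 15 of 17, 3 of 4 and 5 of 8. With copies added to their genes and all 16 mice, 75 of 89 lay above 0. Ndufs5 (-0.17), Cox7a2l (-0.24) and Atp5g2 (-0.08) then turned negative.

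**Figure D4:**
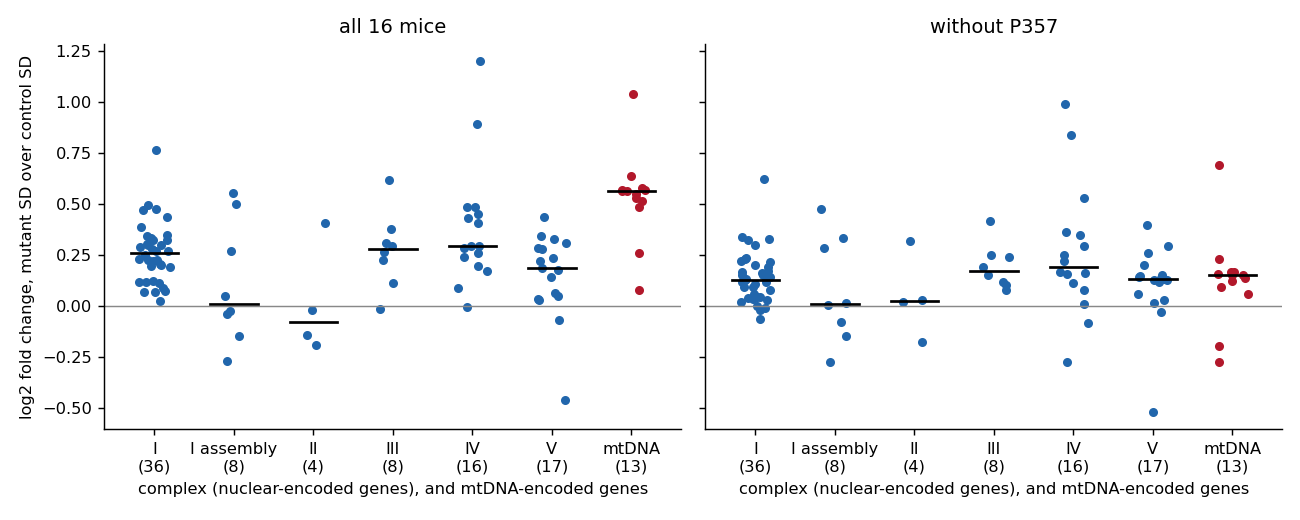
Log2 fold change of mutants over controls on SD for every member, by complex, with the number of genes in brackets and the median as a line, fitted with all 16 mice (left) and without P357 (right). Most nuclear members lie just above 0 in both, and the mtDNA-encoded median falls from 0.56 to 0.15.

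Transcript length moved with these values. Of the 89 nuclear members, 49 had a longest coding transcript under 1 kb. The median log2 difference from the 16-mouse mean of nuclear members was 0.40 in P357, 0.18 in P382 and 0.13 in P392 at the upper end, and -0.24 in P358 and -0.19 in P383 at the lower end. For the 771 other protein-coding genes under 1 kb it was 0.40 in P357, 0.12 in P382, 0.04 in P392, -0.19 in P358 and -0.09 in P383. For the 4772 genes of 4 kb and over the sign was opposite in P357 (-0.25), P382 (-0.04), P358 (0.06) and P383 (0.05), but not in P392 (0.01). P357 thus read short transcripts high in general, whether or not they belonged to oxidative phosphorylation.

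A similar split appeared in the comparison for members under 4 kb. On SD the median log2 fold change of mutants over controls was 0.29 for the 49 short members and 0.17 for the 771 other short genes, 69.8% of which were above 0. For members of 1 to 2 kb it was 0.14, beside 0.07 for 2678 other genes, and for the 9 members of 2 to 4 kb 0.05, beside -0.01 for 5457. The 2 members of 4 kb and over did not follow this split, at 0.28 beside -0.07 for 4772 other genes. All these medians include P357, and none is given without it. The part of length in the SD differences was not tested. The length classes were drawn up after the values had been seen.

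Without both P357 and P392, 2 of 89 nuclear members were called on SD, where 6.70% of all genes were, and 2 of 89 on HFD, where 7.42% were. With a weight per library, 14 of 89 were called on SD (14.1% of all genes) and 2 of 89 on HFD (7.45%). The members called were thus no larger a share than the background, or close to it.

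Cox4i2 had the largest log2 fold changes of any member on both diets. This isoform of cytochrome c oxidase subunit 4, at chr2:152754173-152765037 (plus strand), is known from pericytes as well as from lung. It read 3.71, 3.77, 1.41 and 2.06 in control SD mice, 10.3, 3.53, 7.22 and 6.69 in mutant SD mice, 2.80, 1.85, 1.38 and 5.71 in control HFD mice and 8.46, 4.92, 7.93 and 7.58 in mutant HFD mice. Most mutants read above most controls, but P381 on SD lay among controls and P392 among mutants on HFD. The test gave log2 fold change 1.20 (SE 0.37, adjusted p = 0.102) on SD and log2 fold change 1.30 (SE 0.37, adjusted p = 0.256) on HFD. Without P357, the highest SD mutant, the SD value was 0.99. In the limma fit without P357 and P392 the HFD value was 1.63 (SE 0.32, adjusted p = 0.00777), and 7.42% of all genes were then called. In the fit without P392 alone it was 1.63 (SE 0.35, adjusted p = 0.0133). P392 had the highest Cox4i2 of the HFD controls, so leaving it out raises the fold change by construction.

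Among nuclear members Ndufa4l2 followed on SD. This paralogue of Ndufa4 is a hypoxia-responsive gene, also known as a pericyte transcript, at chr10:127514967-127517154 (plus strand), where an exon of Shmt2 on the opposite strand overlaps it. It read 5.68, 5.0, 5.71 and 7.06 in control SD mice, 12.6, 9.81, 11.6 and 11 in mutant SD mice, 4.91, 6.02, 3.22 and 9.89 in control HFD mice and 5.69, 9.67, 9.58 and 6.48 in mutant HFD mice. On SD the groups did not overlap, and on HFD they did. The test gave log2 fold change 0.89 (SE 0.25, adjusted p = 0.0754) on SD, log2 fold change 0.42 (SE 0.25, adjusted p = 0.603) on HFD and log2 fold change -0.52 (SE 0.25, adjusted p = 0.813) for HFD against SD in mutants. Its main counterpart Ndufa4 read 204, 144, 165 and 151 in control SD mice, 238, 216, 232 and 189 in mutant SD mice, 228, 179, 168 and 222 in control HFD mice and 194, 201, 203 and 203 in mutant HFD mice, with log2 fold change 0.41 (SE 0.12, adjusted p = 0.0918) on SD and log2 fold change 0.02 (SE 0.12, adjusted p = 0.983) on HFD.

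Markers of the vessel wall were read beside Cox4i2 and Ndufa4l2. The summed level of 9 pericyte and smooth muscle markers (Rgs5, Kcnj8, Abcc9, Pdgfrb, Cspg4, Notch3, Acta2, Myh11 and Tagln) read 66.5, 76.7, 71.3 and 54.9 in control SD mice, 107, 110.2, 129.6 and 127 in mutant SD mice, 54.2, 68.3, 65.5 and 179 in control HFD mice and 171, 146, 161 and 114 in mutant HFD mice. On SD all mutants lay above all controls, and on HFD all mutants lay above the controls other than P392, which was the highest of all. The order of the mice matched that of the 2 members only in part. Among SD mutants P357 had the highest Cox4i2 and Ndufa4l2 but the lowest marker sum, close to that of P381. Among HFD mutants P339 had the highest marker sum and the highest Cox4i2 but the lowest Ndufa4l2. Among HFD controls P392 was the highest for both members and for the marker sum. On SD 7 of the 8 markers tested had a log2 fold change above 0 and 5 of 8 an unadjusted p under 0.05 (19.9% of all genes), with 0 called (1.84% of all genes). On HFD 8 of 8 lay above 0 and 5 of 8 had an unadjusted p under 0.05 (10.2% of all genes), with 0 called. The 6 endothelial markers summed to 106 to 128 in control SD mice, 161 to 212 in mutant SD mice, 99.6 to 201 in control HFD mice and 157 to 176 in mutant HFD mice. Their part in the Cox4i2 and Ndufa4l2 values was not tested.

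**Figure D5:**
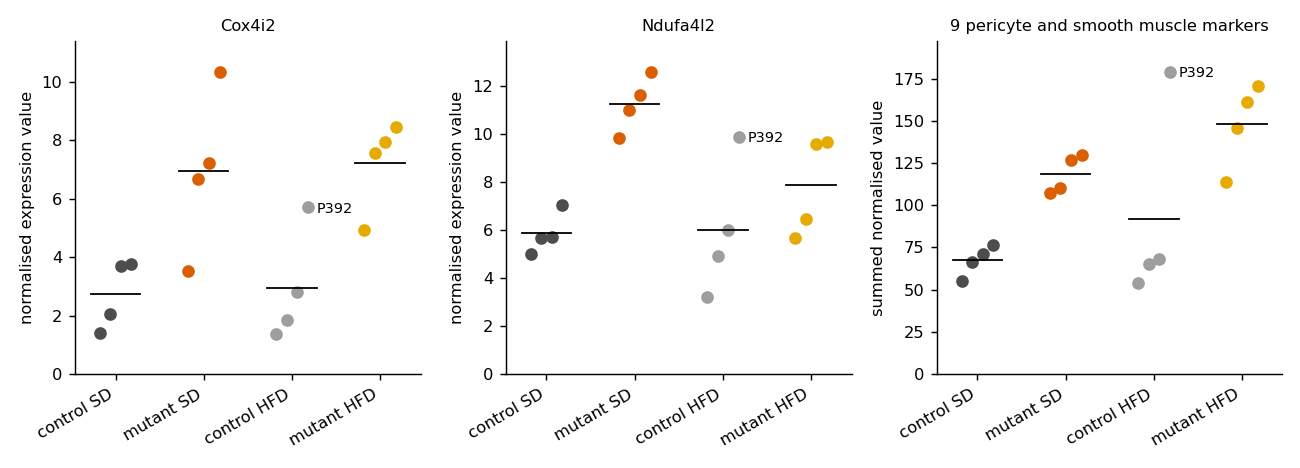
Normalised value of Cox4i2 and Ndufa4l2 and the summed value of 9 pericyte and smooth muscle markers, 1 point per mouse with the group mean as a line. In all 3 panels P392 is the highest control on HFD, and on SD the mutant mean lies above the control mean.

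Other members with large SD differences behaved variably. Ndufa1, a small membrane subunit of complex I, read 274, 146, 187 and 204 in control SD mice, 451, 332, 344 and 246 in mutant SD mice, 305, 197, 223 and 336 in control HFD mice and 156, 243, 264 and 251 in mutant HFD mice. High and low mice were mixed on HFD, and the test gave log2 fold change 0.76 (SE 0.23, adjusted p = 0.0930) on SD, log2 fold change -0.21 (SE 0.23, adjusted p = 0.822) on HFD and log2 fold change -0.97 (SE 0.33, adjusted p = 0.924) for the interaction. Atp5o, which joins the stalk of ATP synthase to its head, gave log2 fold change 0.44 (SE 0.13, adjusted p = 0.0910) on SD. With a threshold of 0.1 in place of 0.05, 5 members were called on SD, among them Ndufa4l2, Atp5o, Ndufa4 and Ndufa1. The share of all genes called at that threshold is not given here.

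A few members lay lower in mutants. Atp5s, a regulator of ATP synthase coupling (also called factor B), read 24.7, 18, 21.5 and 18.4 in control SD mice, 16.6, 13.8, 17.6 and 11.7 in mutant SD mice, 18.9, 20.7, 19.3 and 21.7 in control HFD mice and 17.4, 13.1, 13.3 and 21.3 in mutant HFD mice. On SD every mutant lay below every control, as in 4.50% of all genes tested, with log2 fold change -0.46 (SE 0.16, adjusted p = 0.143), and on HFD P388 reached the control values, with log2 fold change -0.33 (SE 0.16, adjusted p = 0.522). The next lowest on SD were Ndufaf8, an assembly factor (-0.27), and Sdhc (-0.19), neither near the threshold. Without P357 the value was -0.15 for Ndufaf8 and -0.17 for Sdhc. By contrast Sdhb, the iron-sulphur subunit that passes electrons on from Sdha, gave log2 fold change 0.41 (SE 0.13, adjusted p = 0.107).

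Few nuclear members had groups that did not overlap. On SD, 5 of 89 nuclear members, 5.62% of them, had every mutant above every control (among them Ndufa4l2, Ndufs7, Ndufs8 and Sdhb), where 6.09% of all genes did, and 2 of 13 mtDNA-encoded members did, 15.4% of them (mt-Cytb, and mt-Co1 before its copy was added). Every mutant lay below every control for 1 of 89 on SD, Atp5s, 1.12% of them, where 4.50% of all genes did, and for 0 of 13. On HFD every mutant lay above every control for 0 of 89 and 0 of 13, where 2.96% of all genes did. Every HFD mutant lay below every control for 2 of 89, 2.25% of them, where 2.34% of all genes did, and for 0 of 13. These were Ndufaf1, an assembly factor of complex I, and Ndufb4, whose log2 fold change of -0.23 became -0.12 once its copy Ndufb4c was added. Ndufs7 and Ndufs8 encode iron-sulphur subunits of complex I.

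On HFD the nuclear members lay on both sides of 0. Of 89 nuclear members 0 were called, where 0% of all genes tested were; 2 of 89 (Cox4i2 among them) had an unadjusted p under 0.05, where 10.2% of all genes did. The median log2 fold change was -0.01 with 42 of 89 above 0. By complex it ranged from -0.11 for the assembly factors to 0.04 for complex III. After Cox4i2, the largest increases were Cox7a1 (0.46, SE 0.57) and Ndufa4l2, and the largest decreases Atp5s, Ndufaf6 (-0.31, SE 0.32) and Atp5k (-0.24, SE 0.21).

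Diet left no member past the test. In mutants, HFD against SD gave 0 of 89 called (0% of all genes) and 2 of 89 with an unadjusted p under 0.05 (5.0% of all genes), with a median log2 fold change of -0.12 and 18 of 89 above 0. Without P357 the median was -0.05 with 32 of 89 above 0, and 0 of 89 had an unadjusted p under 0.05. The largest decreases were Ndufaf6 (-0.58), Ndufa1 (-0.58) and Ndufa4l2 (-0.52), and the largest increases Cox6b2 (0.49), Ndufaf4 (0.26) and Ndufaf8 (0.25). Without P357 these were -0.32 for Ndufaf6, -0.44 for Ndufa1, -0.47 for Ndufa4l2, 0.76 for Cox6b2, 0.30 for Ndufaf4 and 0.13 for Ndufaf8, so that Ndufa4l2 had the largest decrease.

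In controls, HFD against SD gave 0 of 89 called (0% of all genes) and 2 of 89 with an unadjusted p under 0.05 (4.13% of all genes), with a median of 0.10 and 78 of 89 above 0. The largest nuclear increases were Ndufb4 (0.42) and Ndufa1 (0.39), and the lowest value was -0.11, for Sdhc. The value of Ndufb4 was 0.09 once Ndufb4c was added. The SD controls enter this comparison and the SD genotype comparison alike, so the count of 78 is not independent between them. For the interaction 0 of 89 were called (0% of all genes) and 6 of 89 had an unadjusted p under 0.05 (4.20% of all genes), with a median of -0.25 and 9 of 89 above 0. Without P357 the median was -0.15 with 12 of 89 above 0, and 3 of 89 had an unadjusted p under 0.05. Ndufa1 had the largest interaction (-0.83 without P357), and Ndufaf6 the next (-0.86, SE 0.45; -0.59 without P357).

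The supporting machinery was described with lists drawn up beside the members. On SD none of the assembly factor lists had a gene called: an unadjusted p under 0.05 was reached by 4 of 18 for complex I (which hold the 8 Ndufaf members), 0 of 4 for complex II, 0 of 6 for complex III, 4 of 21 for complex IV and 1 of 5 for complex V, where 19.9% of all genes reached it and 1.84% were called. Their median log2 fold changes were -0.01, 0.18, 0.20, 0.13 and -0.01. Of the electron carrier genes of coenzyme Q and cytochrome c 0 of 14 were called (3 unadjusted, median 0.04), with Cycs, for cytochrome c itself, at 0.46 (SE 0.20, adjusted p = 0.226). Of the tricarboxylic acid cycle genes 0 of 18 were called (3 unadjusted, median 0.08), among them Fh1, for fumarase, at 0.60 and Suclg2, for a succinyl-CoA ligase subunit, at -0.61.

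Genes that control mitochondrial transcription were read next. Of 21 genes for mtDNA transcription and maintenance 0 were called on SD (2 unadjusted, median 0.01), with the mtDNA packaging factor Tfam at -0.23 (SE 0.16) and the polymerase Polg at 0.01 (SE 0.15). Of 10 nuclear regulators tested 0 were called (0 unadjusted, median 0.09), with Nrf1 at -0.04, Gabpa at 0.00 and Esrra at 0.28. Of 9 inner membrane carriers and uncouplers tested 0 were called (3 unadjusted, median 0.12). The adenine nucleotide carriers Slc25a4 and Slc25a5 stood at 0.27 and 0.35, and Ucp1, the uncoupler of brown fat, at 1.61 (SE 0.43, adjusted p = 0.0666) from a mean level of 1.02. On HFD none of these lists had a gene called, and their medians lay between -0.10 and 0.12. The 2 mitochondrial ribosomal RNA genes were not analysed here.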

How the data were processed

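The authors sequenced pituitary RNA of 16 mice (NEBNext Ultra II), quantified it against mm10 with kallisto (gene mode), and normalised the values with sleuth, whose likelihood-ratio test they used. Versions, annotation release, gene filter and use of strand are not given in the sources used here. The deposited values are a normalised signal per gene, not whole, so a foreseen test for counts was not used. Read depth is unknown, and no counting interval is given.

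Members and lists were chosen with earlier results of these data known. Genes with a mean of at least 1 (14345) were fitted as log2(value + 0.5) with limma 3.58.1 (R 4.3.3), a mean for each of the 4 groups, all 16 mice in 1 fit, trended eBayes, two-sided, with Benjamini-Hochberg adjustment over all genes tested and a threshold of 0.05. Fold changes are on this scale and understate those of low genes. The fit was tested on simulated data. Single values were compared with exact permutation tests. Groups were taken from the labels.

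Named genes are the 13 mtDNA-encoded genes, the 2 most abundant nuclear genes of each complex, the 3 largest increases and decreases per comparison, isoform groups and list genes; Ndufs7, Ndufs8, Sdhb, Atp5o, Ndufaf1 and genes with copies were named after their values were seen. The values of 1 member are not reported here. Symbols and coordinates are from GENCODE M21 (GRCm38, the authors' mm10), with 17351 of 17362 identifiers matched, and promoters from RefSeq. Shared sequence was searched with blastn 2.17.0 (at least 95% identity over at least 100 bases). Alternatives changed the filter, pseudocount, scaling, variance model, samples and threshold, or added copies to their genes.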

Additional observations from a re-analysis of the deposited data

Results flagged for a closer look

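Within each group of 4 mice, a mouse was singled out when its gap to the nearest other mouse passed the 95% critical share of the group's range under Dixon's criterion. Of 80 groups examined, over sums and part of the named members, 15 met it. The criterion flags about 1 in 20 groups by chance if the groups are independent. The high mtDNA-encoded values of P357 were known beforehand, so the count of 15 is not a test against that rate. P357 stood above the other 3 SD mutants in 12 of them. Its mtDNA-encoded share was 8.94%. In complex I it read 8569 for mt-Nd1, 4453 for mt-Nd2, 9772 for mt-Nd3, 9423 for mt-Nd4, 13963 for mt-Nd4l, 3905 for mt-Nd5 and 7842 for mt-Nd6. In the other complexes it read 12730 for mt-Cytb, 17555 for mt-Co1, 8583 for mt-Co3 and 18986 for mt-Atp6. These genes come from 1 genome and 1 mouse, so the flags are not independent of each other.

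P339 stood above the other 3 HFD mutants for mt-Atp6, at 7855, and for mt-Nd4, at 3898. P383 stood below the other SD controls for mt-Co3, at 1983, where its copy Gm28437 read 3969. What set these mice apart was not tested.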

How the results depend on the processing

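No nuclear-encoded or mtDNA-encoded member was called in either diet comparison or in the interaction under any alternative run. On SD the count of nuclear members called was 0 in the main fit, 14 with a weight per library, 1 with animal numbers (P339 to P359 against P381 to P392) as a covariate, 2 without P357 and P392, 1 with only the mice compared (Ndufa4l2) and 5 at an adjusted p under 0.1. Leaving out each mouse in turn gave 0 to 4, with 4 without P356 (among them Ndufa1, Atp5o and Ndufa4), 4 without P392 (among them Sdhb, Cox4i2 and Ndufa4l2) and 1 without P391 (Ndufa4l2). On HFD it was 2 with weights, 2 without P357 and P392, and 0 to 1 when each mouse was left out. Of all genes, 14.1% were called on SD with weights and 6.70% without P357 and P392, and 7.45% and 7.42% on HFD. For the other alternatives the share of all genes called is not given here. Their counts of members therefore have no background beside them. Of the mtDNA-encoded members 1 was called on SD with the animal number covariate (mt-Co3). For HFD against SD in mutants, the mtDNA-encoded median turned to 0.049 without P357, and also without P357 and P392, with a range of -0.52 to 0.049 over single mice left out. The log2 fold change of Ndufa1 on HFD turned to 0.0020 with weights. With the animal number covariate, the mtDNA-encoded median for HFD against SD in controls was 0.59 and that of the interaction -1.13. That covariate is tied to the groups, with every HFD control in the upper range and P357 the only SD mutant in the lower. The nuclear median on SD stayed between 0.11 and 0.34 over all alternatives, scalings included, with 67 to 82 of 89 above 0. The addition of copies, and marker medians without P357 and P392, were chosen after seeing the data. The cause of these changes was not tested. Depth is unknown, so what it limits could not be stated. No paired analysis was possible because the sample titles carry numbers, read here as animal numbers, and no replicate numbers shared between groups.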

Other observations

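Markers of other cell types were read on the same samples and are given as values. On SD the 7 immune markers had a median log2 fold change of mutants over controls of 0.70, with 7 of 7 above 0 and 0 called, and on HFD 0.49, with 7 of 7 above 0 and 0 called. The 5 erythrocyte markers had medians of 1.32 and 0.71, each with 5 of 5 above 0 and 0 called. Medians on SD and HFD were -0.81 and 0.60 for melanotroph, -0.45 and -0.13 for corticotroph, -0.11 and 0.02 for lactotroph, -0.16 and -0.23 for somatotroph, 0.03 and -0.15 for gonadotroph, 0.31 and 0.15 for thyrotroph, and 0.27 and 0.05 for stem and folliculostellate markers, with 0 called. Several of these rested on P357 and P392. Without them the medians on SD and HFD were -0.19 and -0.02 for melanotroph, -0.19 and -0.26 for corticotroph, -0.02 and -0.17 for gonadotroph, 0.15 and 0.11 for thyrotroph, and 0.84 and 0.75 for immune markers. Of the 7 posterior lobe markers Col25a1 was called on SD, higher in mutants, where 1.84% of all genes were called. The posterior lobe list as a whole had a median of -0.08 with 2 of 7 above 0 on SD. On HFD its median was 0.38 with 7 of 7 above 0 and 0 called, and 0.06 without P357 and P392. Of 2 adipocyte markers tested Fabp4, a gene also expressed in capillaries, was called higher on SD (1.63), and the other stood at -0.43.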
